A study of Mus musculus with 2 samples.

Results

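The intestinal transcripts Defa24, Defa30, Lyz1, Itln1, Mptx1, Zg16, Agr2, Muc2, Reg3b and Fabp6, were followed in 2 droplet libraries sorted from mouse thymus. They are 10 of the 32285 features in the count matrices. They were selected on their measured UMIs, as abundant epithelial transcripts of 1 library, so their excess in that library is described here without a test. The control library came from Tbx21Cre Rosa26-YFP+ mice. The other library, called cKO, came from Tbx21Cre Ets1F/F Rosa26-YFP+ mice, whose floxed copies of the transcription factor gene Ets1 are cut by the same Cre. Both genotypes carry Cre under Tbx21, the gene of T-bet, and a YFP reporter that stays on in cells that have expressed Cre, and YFP+ cells were sorted before 3' single-cell RNA sequencing. Each library pools 2 mice without a mark of the animal, genotype and library cannot be told apart, and no p-value is given.

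The small intestinal lining is divided among specialised cells. Paneth cells at the crypt base secrete antimicrobial proteins, goblet cells secrete mucus, and enterocytes absorb nutrients and, in the ileum, bile acids. Defa24 and Defa30 encode alpha-defensins, Lyz1 encodes the Paneth cell lysozyme, and Itln1 and Mptx1 encode intelectin and a mucosal pentraxin. Zg16 encodes a lectin of the mucus, Muc2 its main mucin, and Agr2 an endoplasmic reticulum protein needed to fold that mucin. Reg3b encodes an antibacterial lectin. Fabp6 encodes the cytosolic bile acid binding protein of ileal enterocytes, so the label "secretory" does not cover all members. T, NK and B lymphocytes are not known to make these products, while some thymic medullary epithelial cells transcribe genes of other tissues, gut genes among them.

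The coding sequences of the 2 defensins are shown because the balance between them differed between barcode classes, and because so few bases separate them. Both genes lie on the plus strand in GRCm38, Defa24 at chr8:21734494-21735471 and Defa30 at chr8:21134642-21135598. The coding sequences from GENCODE vM21 are given 5′ to 3′, with the bases that differ between them in capitals.
Defa24: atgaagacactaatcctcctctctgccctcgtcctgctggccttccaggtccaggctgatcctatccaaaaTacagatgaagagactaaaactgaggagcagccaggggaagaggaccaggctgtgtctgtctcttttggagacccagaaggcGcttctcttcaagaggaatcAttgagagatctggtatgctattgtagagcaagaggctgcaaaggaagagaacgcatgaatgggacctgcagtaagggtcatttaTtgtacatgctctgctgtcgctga
Defa30: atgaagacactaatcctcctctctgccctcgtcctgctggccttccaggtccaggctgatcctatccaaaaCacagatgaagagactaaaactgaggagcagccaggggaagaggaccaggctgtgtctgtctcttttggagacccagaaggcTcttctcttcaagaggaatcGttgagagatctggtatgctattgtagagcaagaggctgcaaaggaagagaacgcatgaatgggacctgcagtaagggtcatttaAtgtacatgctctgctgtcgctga
Of 282 aligned bases 278 were identical (98.6%). Of the stretches of 50 bases in the last 400 bases of each transcript, 29.6% of those of Defa24 and 52.4% of those of Defa30 also occurred in transcripts of other genes, all named Defa except Gm14851, which shared some with Defa30. For Lyz1 the share was 19.1%, all with its myeloid copy Lyz2, and for the other 7 genes it was 0. Counts of the 2 defensins and of Lyz1 could therefore depend on how the authors' counting treated the shared stretches, which was not tested.

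The control library held 10102 barcodes with 35210431 UMIs and the cKO library 11206 barcodes with 39979742 UMIs, at medians of 1640 and 1367 UMIs per barcode and never under 500. Barcodes with fewer than 500 genes, 2287 in control and 3830 in cKO, formed a class of their own. The rest were called CD3+ T with at least 2 UMIs of Cd3d, Cd3e and Cd3g, B with at least 2 UMIs of B cell genes, NK with an Ncr1 UMI and no CD3 UMI, and Epcam+ with a UMI of the epithelial adhesion gene Epcam. Barcodes that met 2 of these rules were set apart as mixed, and no doublet caller was run. Those that met none, 443 in control and 522 in cKO, were called other. In T barcodes Ets1 stood at 508 CPM (UMIs of a gene per 1000000 UMIs of its class) in control and 181 in cKO, in the direction its genotype label gives.

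Marker genes outside the rule were set against each cKO class. The 8 T cell markers summed to 5149 CPM in T barcodes and 53.9 in Epcam+ barcodes, the 8 NK markers to 19131 CPM in NK barcodes, and the 8 B cell markers to 30069 CPM in B barcodes. In Epcam+ barcodes all 12 gut epithelium markers were present and summed to 14238 CPM, with Lgals4 at 3377, Krt8 at 2431 and the intestinal transcription factor genes Cdx1, Cdx2 and Hnf4a between 88.7 and 134 CPM. The 12 thymic epithelium markers summed to 792 CPM there, of which Ccl25, a chemokine that the small intestine also makes, gave 751. Foxn1 and Krt5 were at 0 and Aire stood at 0.599 CPM. The class is therefore described as Epcam+ barcodes with gut markers, and the tissue its cells came from was not tested.

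The 10 genes were nearly absent from the control library and abundant in the cKO library. Control held 62 of their UMIs in 45 barcodes, 0.000176% of all its UMIs. cKO held 650758 in 7903 barcodes, 1.63% of its UMIs. In control the most frequent were Zg16 with 19 UMIs, Fabp6 with 15 and Reg3b with 10, and no UMI of Defa30 was found. In cKO Fabp6 gave 221878, Zg16 146423, Defa24 56916, Reg3b 53751, Agr2 53666, Defa30 37836, Muc2 27072, Mptx1 25046, Lyz1 14280 and Itln1 13890.

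Most of the cKO UMIs lay in Epcam+ barcodes and in barcodes under 500 genes. The 2895 Epcam+ barcodes, 25.8% of the library, held 480983 of them (73.9%). A member UMI was found in 98.9% of these barcodes (95% exact interval 98.5 to 99.3), with a median of 83 UMIs and a highest of 8561, and 2613 of them had 10 or more. The 10 genes made up 7.20% of all UMIs in the class. Barcodes under 500 genes held another 145332 (22.3%), with a median of 32 UMIs, and 78.0% of them had 10 or more. The 522 cKO barcodes called other, which had no Epcam UMI, held 11384 (1.75%). A member UMI was found in 59.8% of them, and 171 (32.8%) had 10 or more. Control had only 7 Epcam+ barcodes and none held a member UMI, with an exact upper limit of 40.96% and a floor of 3 counts at 42.9%. In these 7 the NK cell markers summed to 13233 CPM and 7 plasma cell markers to 73185 CPM. Of the 12 gut epithelium markers 9 were at 0, so these barcodes are not read as a counterpart of the cKO class. In control barcodes under 500 genes the share was 0.262% (0.0963 to 0.570). All intervals cover counting error only.

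Lymphoid barcodes of cKO held far fewer. Of 3418 T barcodes 944 (27.6%, 26.1 to 29.1) had a member UMI, 767 of them exactly 1 and 125 exactly 2. The mean was 0.417 UMIs per barcode and the level 56.7 CPM, at a median depth of 6808 UMIs. Of 253 B barcodes 44.3% (38.0 to 50.6) had one, and of 47 NK barcodes 46.8% (32.1 to 61.9), at median depths of 8329 and 8583 UMIs. In control the share was 0.469% of 6819 T barcodes (0.321 to 0.662), with at most 3 UMIs in any of them. A member UMI was found in 0 of 105 NK and 0 of 104 B barcodes, with exact upper limits of 3.45% and 3.485%. The floor of 3 counts stands at 2.86% and 2.88% of these 2 classes. None of these lymphoid types is expected to transcribe the genes, and the shares are not read as expression. In cKO 0.293% of T barcodes and 90.3% of Epcam+ barcodes had 10 or more member UMIs, at means of 0.417 and 166.

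**Figure D1:**
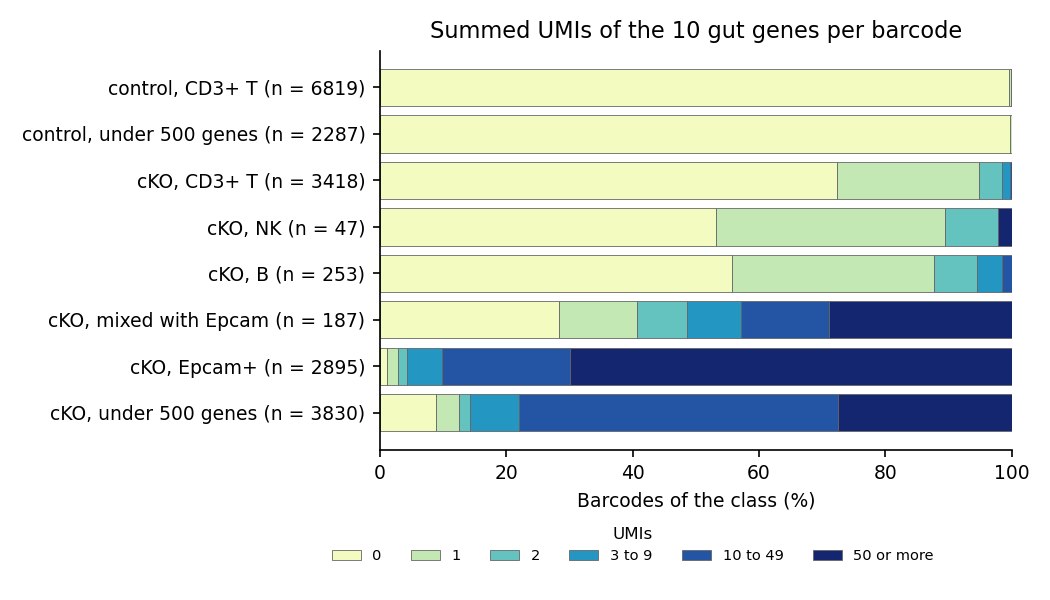
Horizontal bars give the percentage of barcodes of each class (x axis) by their summed UMIs of the 10 genes, with the library, class and number of barcodes on the left. Control bars are almost wholly at 0, cKO T, NK and B bars are mostly at 0, 1 or 2, and 90.3% of cKO Epcam+ barcodes have 10 or more.

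A few lymphoid barcodes stood apart from the rest. In T barcodes 10 of 3418 had 10 or more member UMIs and held 17.8% of the class's total. The highest had 98, of which 55 were Zg16 and 18 Agr2, beside 31 CD3 UMIs and 2280 genes. Others were led by 1 member: a barcode with 20 had 16 of Fabp6, and another had all 17 of its UMIs from Fabp6. In this set of 10, 8 had between 14 and 58 CD3 UMIs, while 2 barcodes had only 2, at total depths of 862 and 871 UMIs. In NK a single barcode held 85 of the 110 UMIs, with 26 of Mptx1, 24 of Agr2, 15 of Itln1 and 12 of Defa24. In B 4 barcodes with 44, 30, 16 and 14 UMIs held 40.5% of the total, at depths from 998 to 1613 UMIs. Without barcodes of 10 or more, the means fell to 0.344 UMIs per barcode in T, 0.543 in NK and 0.614 in B. The NK level of 293 CPM thus rests mostly on 1 barcode, and the B level of 115 CPM rests in part on 4.

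Barcodes with both Epcam and lymphoid markers lay between the 2 patterns. The 187 such cKO barcodes had a median of 3 member UMIs, and 80 of them had 10 or more. Those with exactly 1 Epcam UMI, 106 barcodes, had a median of 1, and those with 2 or more, 81 barcodes, a median of 69. Control had 166 barcodes of this kind, and 3 of them held a member UMI. Whether the cKO ones hold more than 1 cell was not tested.

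The shallow barcodes of cKO split the same way by their own markers. Those with Epcam and under 2 CD3 UMIs, 2583 barcodes, had a share of 99.3% and a median of 36 member UMIs. Those with at least 2 CD3 UMIs and no Epcam, 148 barcodes, had a share of 16.9% (11.2 to 23.9) and a median of 0. The 1090 with neither had a share of 82.0% and a median of 20. The CD3 group was thus low at a median depth of 708.5 UMIs, and the Epcam group high at 633. The median percentage of mitochondrial UMIs was 17.9% in the CD3 group and 9.54% in the Epcam group, and its part in the difference was not tested.

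The mean was then followed over 5 intervals of depth, counted in UMIs of all other genes, with limits at 1000, 2000, 4000 and 8000 UMIs. In Epcam+ barcodes it rose from 55.0 member UMIs at 500 to under 1000 UMIs to 98.7, 255, 487 and 649. In T barcodes the means over the same intervals were 1.30, 0.218, 0.218, 0.380 and 0.514. The first of these rests on 50 barcodes, 2 of which had 10 or more member UMIs. The deepest T interval stood above that from 1000 to under 2000 UMIs, with 0.474 to 0.557 against 0.162 to 0.287. With barcodes of 10 or more member UMIs left out of both classes, the T means were 0.312, 0.218, 0.218, 0.310 and 0.446, and the Epcam+ means were 4.81, 3.95, 2.69, 2.59 and 2.88. That filter acts on the outcome and leaves 282 of the 2895 Epcam+ barcodes, so the rise in Epcam+ barcodes was not seen among those few. In CPM, all T barcodes included, the level ran the other way, from 146 CPM at 1000 to under 2000 UMIs to 44.9 CPM at 8000 and over. Spearman's rho between member UMIs and the UMIs of all other genes was 0.17 over 3418 T barcodes and 0.45 over 2895 Epcam+ barcodes, as a description of barcodes that share a library. With the percentage of mitochondrial UMIs it was -0.01 and -0.05. The median percentage of mitochondrial UMIs was 2.57% in T and 8.89% in Epcam+ barcodes. Among barcodes with at most 10%, the shares with a member UMI were 28.3% and 98.6%.

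**Figure D2:**
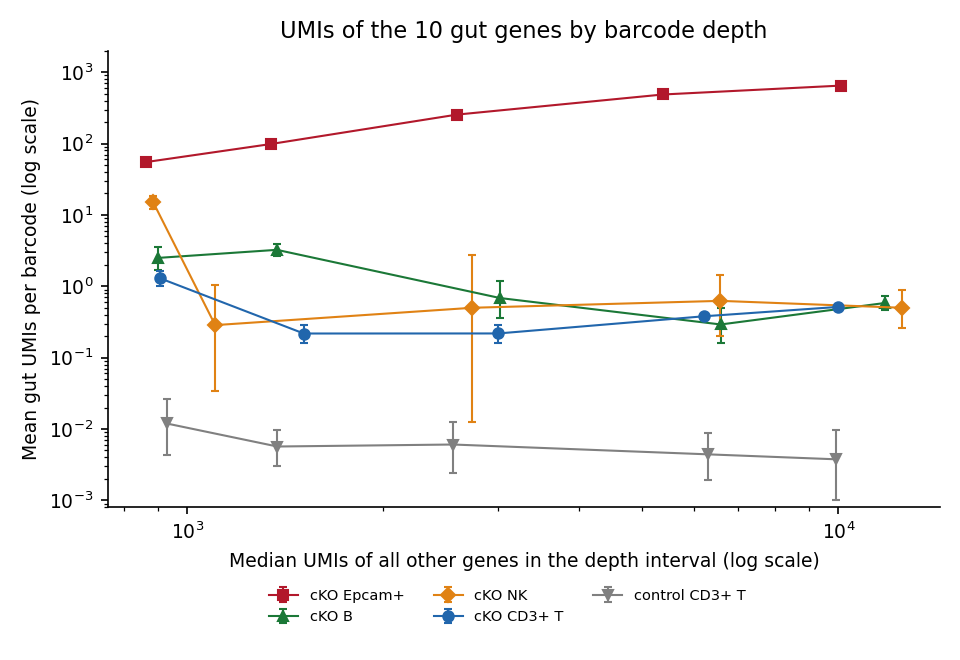
Mean summed UMIs of the 10 genes per barcode (y axis, log scale) against the median UMIs of all other genes in 5 depth intervals (x axis, log scale), over all barcodes of each class and with exact 95% Poisson intervals. The cKO Epcam+ means climb from 55.0 to 649, the cKO T means lie between 0.218 and 1.30, the shallowest NK mean of 15 holds the barcode with 85, and the control T means stay at or under 0.0119.

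The lymphoid classes were also compared at matched depth. At 8000 UMIs and over, the means without barcodes of 10 or more were 0.446 in T (0.408 to 0.486), 0.5 in NK (0.258 to 0.873, 24 barcodes) and 0.584 in B (0.463 to 0.727, 137 barcodes), and over all barcodes the shares with a member UMI were 35.3%, 41.7% and 46.7%. At 4000 to under 8000 the means were 0.310 in T, 0.625 in NK and 0.292 in B, and the intervals overlapped. At 1000 to under 2000, the mean was 0.882 in B (0.595 to 1.26, 34 barcodes) and 0.218 in T (0.162 to 0.287). These intervals did not overlap, while the 7 NK barcodes there had a mean of 0.286. Over all barcodes, the shares at 4000 to under 8000 were 25.4% in T (23.4 to 27.5) and 25% in B (13.6 to 39.6). They were 19.2% in T and 57.9% in B at 2000 to under 4000, and 15.8% and 48.65% at 1000 to under 2000. After every barcode was thinned to 1500 UMIs, the share with a member UMI was 7.44% in T (6.56 to 8.39), 13.2% in B (9.01 to 18.4) and 2.94% in NK (0.0744 to 15.3). Shallower barcodes were left out, 164 of T, 33 of B and 13 of NK. In control T barcodes the thinned share was 0.165%, and 1963 were left out. In thinned cKO barcodes the share was thus higher in B than in T beyond counting error, by 1.77 times. At 3000 UMIs it was 20% in B (14.6 to 26.3) and 12.5% in T (11.3 to 13.7), again without overlap. The unthinned shares did not differ in this way at 4000 to under 8000 UMIs. Thinning does not match the original depths of the 2 classes, and their part in the difference was not tested. NK rests on few barcodes and moved with the thinning, to 11.9% (3.98 to 25.6) at 1000 UMIs and 18.8% (7.21 to 36.4) at 3000, so no order of NK against T or B is read.

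T barcodes were also split by single genes. The share with a member UMI was 28.9% in those with at least 2 UMIs of Fxyd7, 31.0% with at least 2 of Cd8b1, 31.0% with the NK receptor gene Klrb1c, 29.2% with Izumo1r and 33.1% with the proliferation gene Mki67, at median depths from 6788 to 10241 UMIs. In T barcodes with none of these it was 25.1% (22.7 to 27.6), at 6166 UMIs. The highest share lay in the deepest of these groups and the lowest in the shallowest. In CPM the order differed, with 66.2 in the Fxyd7 group (61.0 to 71.7) and 37.6 in the Mki67 group (30.9 to 45.4). The Fxyd7 group held 4 barcodes of 10 or more member UMIs, and without them its mean fell from 0.487 to 0.366 UMIs per barcode. The Mki67 group held 0 such barcodes, at a mean of 0.462. A barcode could belong to several of the groups named by a gene.

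The members stood in similar, but not the same, proportions in T and Epcam+ barcodes. Fabp6 led in both T and Epcam+ barcodes, with 31.4% and 33.4% of the member UMIs, and Zg16 was second with 25.9% and 22.7%. Muc2 gave 5.33% and 4.26%, Agr2 7.85% and 8.24%, Itln1 2.45% and 2.11%, and Mptx1 3.37% and 3.69%. Reg3b was lower in T barcodes, with 5.89% (4.725 to 7.24) against 7.98%. Lyz1 was lower there as well, with 1.47% (0.914 to 2.24) against 2.50%. Without T barcodes of 10 or more member UMIs, Reg3b gave 6.83% (5.45 to 8.42) and Lyz1 1.71% (1.045 to 2.62). Those intervals include the Epcam+ values, so neither difference holds beyond counting error without the high barcodes. Zg16 then gave 21.5% in T barcodes. Defa24 gave 13.6% in T and 8.97% in Epcam+ barcodes, while Defa30 gave 2.73% and 6.20%, so the 2 defensins moved in opposite directions. The smaller classes departed further: in B Zg16 gave 35.0% and Fabp6 24.5%, and in NK Agr2 gave 24.5%, Mptx1 23.6% and Fabp6 5.45%. These totals rest on the few high barcodes, in part in B and mostly in NK. Without them Fabp6 gave 39.9% and Zg16 20.3% in B, and in NK Zg16 gave 10 and Fabp6 4 of the 25 UMIs left.

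Each member's mean in T barcodes was then set against its mean in Epcam+ barcodes. It was 0.381% for Defa24 (0.329 to 0.439), 0.314% for Muc2, 0.292% for Itln1, 0.288% for Zg16 and 0.239% for Agr2. It was 0.236% for Fabp6, 0.229% for Mptx1, 0.185% for Reg3b, 0.148% for Lyz1 and 0.111% for Defa30 (0.0788 to 0.152). The median was 0.237%, and the Paneth cell genes held both ends of the range.

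Other gut genes, from 4 lists fixed for Paneth cells, goblet cells, enterocytes and shared epithelium, were set against their Epcam+ mean in the same way. Of 59 measured genes 55 were under 1 CPM in control T barcodes, the 4 others being Ramp1, Mttp, Lgals4 and Cdh1. Among the 55, the 35 with at least 10 UMIs in cKO T barcodes had a median of 0.356% of their Epcam+ mean, with a range of 0.174% to 11.6%, beside 0.237% for the members. Genes low in Epcam+ barcodes could reach 10 UMIs only with a high percentage, so the minimum takes low percentages out among them. Of the goblet cell genes Spink4 stood at 0.652% and the trefoil factor gene Tff3 at 0.477%. Of the enterocyte genes Fabp2, a fatty acid binding protein, stood at 0.295% and the apolipoprotein gene Apoa1 at 0.240%. Creb3l1, singled out after its value was seen, stood highest at 11.6%, with 25 UMIs already in control T barcodes.

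**Figure D3:**
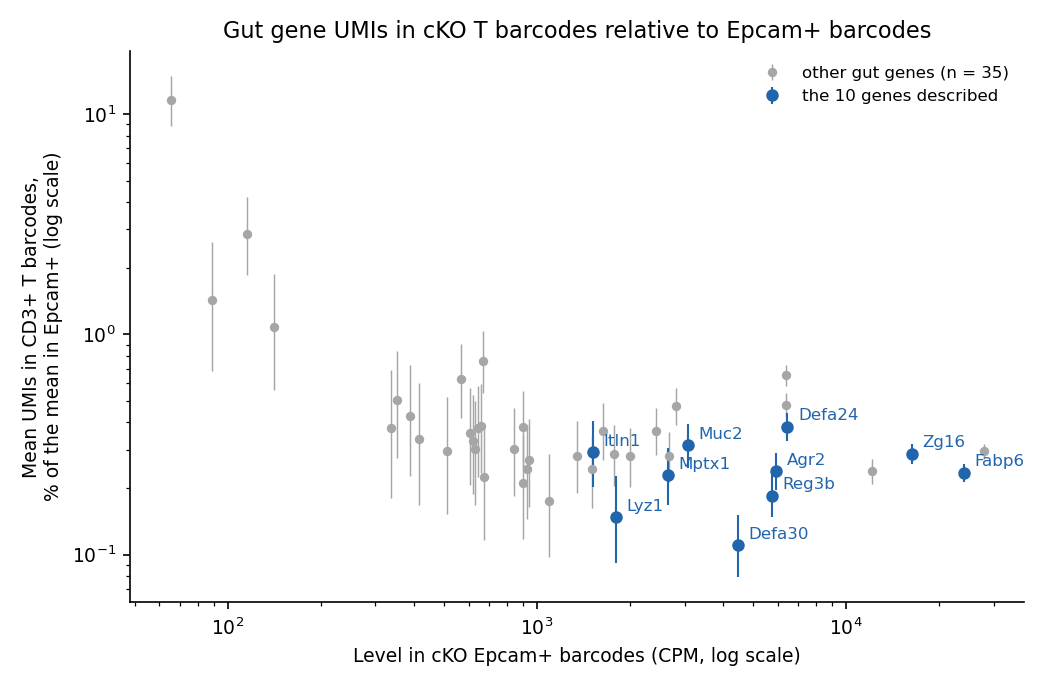
Each point is a gut gene in the cKO library, with its level in Epcam+ barcodes on the x axis (CPM, log scale) and its mean in T barcodes as a percentage of its Epcam+ mean on the y axis (log scale), with 95% intervals from the T counts. All of the 10 named genes but 1 lie between 0.148% and 0.381%, and Defa30 lies lowest at 0.111%, while its near-copy Defa24 lies highest of the 10.

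The 2 defensins gave the clearest departure from 1 shared proportion. In T barcodes there were 194 UMIs of Defa24 and 39 of Defa30, a ratio of 4.97 (3.51 to 7.21). In NK there were 14 and 2, of which 12 and 2 lay in 1 barcode, and in B 32 and 4. Over all 3 lymphoid classes the ratio was 5.33 (3.87 to 7.51), and in those with under 10 member UMIs it was 4.98 (3.54 to 7.14). In Epcam+ barcodes there were 43137 and 29813 UMIs, a ratio of 1.45 (1.43 to 1.47), and in barcodes under 500 genes the ratio was 1.72. The lymphoid interval lay wholly above both. The ratio in T barcodes did not rest on the few high barcodes, but it was 2.35 when Epcam was not used to keep barcodes out of the class.

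Epcam+ barcodes were not uniform in this ratio. In the 277 with at least 50 UMIs of the 2 genes, Defa24 made up between 15.96% and 100% of them, with quartiles at 33.3% and 67.3%. Among Epcam+ barcodes with at least 20 member UMIs, grouped after the data were seen by the member with most UMIs, the ratio was 1.39 where Fabp6 led (1368 barcodes) and 1.83 where Zg16 led (525 barcodes). It was 6.97 where Agr2 led (156 barcodes), 4.92 where Mptx1 led (39) and 4.82 where Reg3b led (76). Barcodes led by either defensin were left out, since the ratio itself chooses them. The lymphoid ratio thus lay within the spread of single Epcam+ groups, above that of the class as a whole. By the number of UMIs of the 2 genes, the ratio in barcodes under 500 genes was 2.07 with 1 to 2 (1.81 to 2.37), 4.48 with 3 to 9 (3.997 to 5.03), 1.58 with 10 to 49 and 1.49 with 50 or more. In Epcam+ barcodes it was 2.06, 2.04, 1.37 and 1.44. Barcodes of either class with as few UMIs of the 2 genes as most lymphoid ones, 1 to 2, thus stood below the lymphoid ratio. The cause of these differences was not tested.

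**Figure D4:**
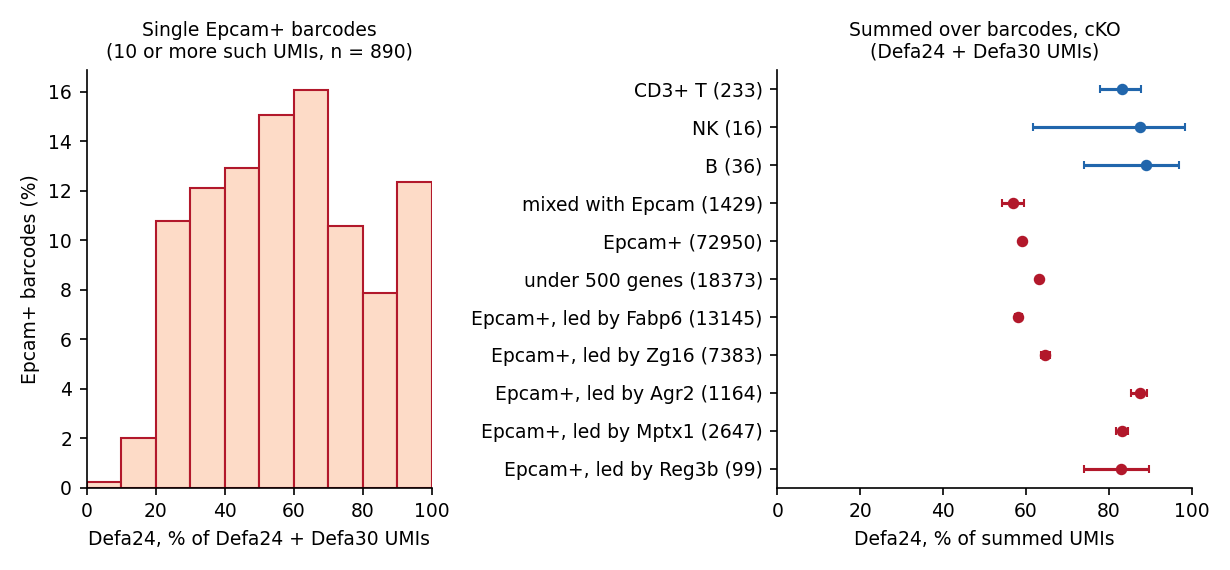
Left, 890 cKO Epcam+ barcodes with at least 10 UMIs of Defa24 and Defa30, by the percentage that was Defa24 (x axis), with the percentage of barcodes on the y axis. Right, the same percentage for UMIs summed over the barcodes of a class, with exact 95% intervals and the summed UMIs in parentheses. Lymphoid classes (blue) lie at 83.3% to 88.9% and the whole Epcam+ class at 59.1%. In NK 12 of the 14 Defa24 UMIs and 2 of the 2 Defa30 UMIs lie in 1 barcode.

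Single Epcam+ barcodes held UMIs of members from several gut cell types. Of 2474 with at least 20 member UMIs, 1368 (55.3%) were led by Fabp6, 525 (21.2%) by Zg16, 164 by Defa30, 156 by Agr2, 141 by Defa24, 76 by Reg3b and 39 by Mptx1. The leading member gave a median of 51.1% of the member UMIs, and the median barcode held 7 of the 10 members. Any UMI of a member counted here, and whether all UMIs came from the barcode's own cell was not tested. Barcodes led by the ileal enterocyte gene thus outnumbered those led by the mucus lectin gene, and both outnumbered those led by a defensin. In barcodes under 500 genes the order was alike at the top, with 1381 of 2545 led by Fabp6 and 595 by Zg16.

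Other gut genes were compared between T barcodes with few and with more member UMIs. At 4000 to under 8000 UMIs of depth, the summed mean of the gut genes that were under 1 CPM in control was 0.497 UMIs in T barcodes with no member UMI (0.460 to 0.537) and 0.508 with 1 (0.438 to 0.586). It was 0.667 with 2 (0.450 to 0.952), 6.11 in the 19 barcodes with 3 to 9 (5.04 to 7.32) and 18.3 in the 3 with 10 or more. The medians were 0 with up to 2, 1 with 3 to 9 and 15 with 10 or more, so the mean with 3 to 9 rests on a few barcodes. In this interval a single member UMI thus went with no more other gut UMIs beyond counting error. Over T barcodes of all depths the means were 0.5445 with none (0.516 to 0.574) and 0.709 with 1 (0.651 to 0.771). These intervals did not overlap, at median depths of 6553 and 7403 UMIs, and the part of depth was not tested. At 8000 UMIs and over, the means were 0.770 with none (0.709 to 0.835) and 1.03 with 1 (0.926 to 1.15), which did not overlap, but the median depths also differed, 9741 and 10605 UMIs. With 3 to 9 the mean was 1.78 there (1.22 to 2.51), and with 10 or more 14.2, and the medians were 1 in each group up to 9 and 13 with 10 or more.

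Outside the 10 members, the genes with the most similar pattern over 12 points (6 classes in 2 libraries) were Tff3 (Pearson r = 0.99 with the summed members), Spink4, Fabp2, Lgals4, Retnlb, Guca2a, Apoa1, Lgals2, Il18 and Tmed10 (r = 0.97). They were ranked among 9482 genes on log2(CPM + 1), of which 30 had r over 0.95. The points share 2 libraries, and r is given without a p. Retnlb, Guca2a and Lgals2 are epithelial genes of the gut. Il18 stood at only 38.5 CPM in Epcam+ barcodes, and Tmed10, a gene of the secretory pathway used by most cells, at 157 CPM in T barcodes and 300 in Epcam+ barcodes, so a high r here does not mark a gene as confined to the gut.

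T barcodes of the 2 libraries were compared by a rule of size, which asked for a ratio of at least 1.5 in either direction, at least 20 CPM in 1 library, and a 95% interval of the ratio that excludes 1. Of 5941 genes tested, 18.6% met it, and 0 of the 10 members reached 20 CPM, the highest being Fabp6 at 17.8 CPM and Zg16 at 14.7. When mitochondrial and ribosomal protein genes were left out of the total, 2 members met the rule, and with T barcodes called from 1 CD3 UMI upward 1 did. Of all genes that met the rule 72.7% were higher in cKO, but 45.5% with the reduced total and 44.4% with median-ratio scaling. With a minimum of 10 CPM, Fabp6 and Zg16 were higher in cKO, beside 14.5% of all genes. With no minimum, all 10 members were higher, beside 15.6% of all genes, and the list's median log2 ratio was 5.26, against 0.25 over the 19337 genes compared. Since the members were chosen for this excess, nothing is read from their count.

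By ratio of T barcode levels, Fabp6 was 70.9 times higher in cKO (36.5 to 190), from 7 control UMIs. Zg16 was 30.3 times higher (18.5 to 58.0), from 14. Reg3b was 15.4 times higher (7.33 to 46.6), from 6. Defa30 and Itln1 had no UMI in control T barcodes and were at least 15.4-fold and 13.9-fold higher against a floor of 3 counts over the class, with lower limits of 12.0 and 10.7 from the interval of the ratio. Of the 59 other gut genes 37 were higher with no minimum and 2 lower. Of all 19337 genes compared in this way 3008 (15.6%) were higher and 1151 lower. Of the Paneth cell list 4 of 13 were higher and 0 lower, of the goblet list 7 of 12 and 0, of the enterocyte list 14 of 18 and 1, and of the shared epithelial list 12 of 16 and 1. In the Paneth list 6 genes had no UMI in cKO T barcodes. Lists of other cell types moved in T barcodes as well: 7 stromal genes summed to 0.435 CPM in control and 10.5 in cKO, and 4 erythroid genes to 226 and 1.23. Their part in the ratios was not tested.

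The few member UMIs in control were concentrated in barcodes that both libraries list. The 2 libraries shared 29 barcode sequences, 0.287% of the control barcodes. Of the 29, 7 (24.1%, 10.3 to 43.5) held a member UMI in control, against 38 of 10073 others (0.377%, 0.267 to 0.517). These 7 held 21 of the 62 control UMIs (33.9%). In the cKO library the same 7 barcodes held between 24 and 642 member UMIs, with a median of 68. Of the 12 shared barcodes with at least 20 member UMIs in cKO, 7 had one in control, and of the 17 with fewer, 0. Without the shared barcodes the control share in T barcodes was 0.412%, and the cKO share stayed at 27.6%. How UMIs came to stand under the same barcode in both libraries was not tested.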

How the data were processed

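YFP+ thymus cells of 2 genotypes were measured in 1 library each. The authors deposited whole-number UMI counts per gene and barcode; Cell Ranger 2.1.1 and mm10 are named in the submitters' processing notes, whereas the matrix headers give software version 3.0.0, and this difference was not resolved. The sources used here do not name the aligner's settings. All deposited barcodes were used. CPM is a gene's summed UMIs in a class and library as a share of that class's total. Shares have exact Clopper-Pearson and counts exact Poisson 95% intervals; ratios of CPM have conditional binomial ones, and each ratio was taken after adding 0.5 UMIs per library. A count of 0 was set against 3 counts. Thinning drew UMIs without replacement. The fold rule was tested on simulated data. All 10 members were named, with the 10 genes most like them, up to 4 genes of each list by level, and Epcam, Cd3e, Ncr1, Cd79a, Lyz2 and Ets1. Members and lists were chosen with earlier results of these data known. The tools were scipy 1.17.1, numpy 2.4.6, matplotlib 3.10.9 and pandas 2.3.3 in Python 3.11.15. Alternatives covered mitochondrial UMIs, class rules, high and deep barcodes, shared barcodes, thinning, scaling and thresholds.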

Additional observations from a re-analysis of the deposited data

How the results depend on the processing

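No paired analysis was possible because each genotype has 1 library. Shares are percentages of barcodes with a member UMI in cKO unless said otherwise. Thinning to 1500 UMIs gave 7.44 in T, 2.94 in NK, 13.2 in B, 94.7 in Epcam+ and 64.7 under 500 genes. The last value rests on the 17 barcodes of that class that were deep enough (38.3 to 85.8). Thinning gave 0.165 in control T barcodes and 0 in the 13 control barcodes under 500 genes that remained (upper limit 24.7). Leaving out the 2 most abundant members gave 14.0 in T, 21.3 in NK, 22.1 in B, 95.3 in Epcam+ and 85.6 under 500 genes, and 0.249 in control T barcodes. Without barcodes of 10 or more member UMIs the shares were 89.0 in Epcam+ and 59.9 under 500 genes. Without the deepest 5% of barcodes T stood at 25.5. With Epcam not used to leave barcodes out, B stood at 53.7, and Defa24 to Defa30 in T at 2.35. The mean member UMIs per barcode then rose from 0.417 to 1.19 in T, 2.34 to 11.2 in NK and 1.016 to 26.3 in B. The low lymphoid means thus depend on leaving out barcodes with an Epcam UMI. A minimum of 1000 genes gave 98.0 in Epcam+ and 88.6 under it. Under 200 genes the share was 61.5 (26 barcodes) in cKO and 0 (5 barcodes) in control. At most 10% mitochondrial UMIs gave 92.1 under 500 genes. The B to T ratio after thinning was 1.77, and 2.34 and 1.60 at 1000 and 3000 UMIs. Of 1104 genes past the fold rule, 384 passed at 2-fold and 4159 with no level minimum. The alternatives of the defensin ratio, and the B to T ratio without high barcodes (1.77), were added after the data were seen. The NK class is limited by its 47 barcodes (11.9 and 18.8 after thinning to 1000 and 3000 UMIs), and 1 library per genotype gives no replicate error for any value.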

Other observations

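T cell transcripts were also counted in Epcam+ barcodes. A UMI of the T cell receptor constant genes Trac, Trbc1 or Trbc2 was found in 6.36% of cKO Epcam+ barcodes (5.49 to 7.31), at a mean of 0.0743 UMIs, against 99.4% of T barcodes and 26.1% of B barcodes. In control B barcodes the share was 56.7% (46.7 to 66.4). The share in Epcam+ barcodes lies below the 27.6% of T barcodes that held a UMI of the 10 gut genes. The median depths were 1463 and 6808 UMIs, however. The levels differed too, with the 10 gut genes at 71974 CPM in cKO Epcam+ barcodes. In cKO T barcodes Trac, Trbc1 and Trbc2 stood at 923, 914.5 and 1459 CPM. The difference between the shares was not tested.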
